A study of Mus musculus with 4 samples.

Results

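The genes described here are 36 genes of cholesterol and fatty acid synthesis in mouse, comprising the enzymes of the mevalonate and sterol pathway, the proteins that sense sterols and switch the pathway on, and the enzymes that make, desaturate, elongate and esterify fatty acids. They were chosen by name, and for each the brightest probe set was taken (by mean log2 intensity over the arrays) among those annotated to that gene alone. Of the 36 genes, 35 were measured, out of 18194 genes measured in all. Acat2 was not analysed here. All RNA came from bone marrow cells of C57BL/6 mice that were infected with a lentivirus and then grown for 4 days with GM-CSF and IL-6, the cytokines that drive such cultures towards myeloid-derived suppressor cells (MDSCs). The kdNC culture received a control shRNA lentivirus and the kdLNC culture a lentivirus with an shRNA against lncMDSC, the name used in the sample labels for the long non-coding RNA that the study calls lnc-C/EBPβ. The oeNC culture received the control lentivirus for overexpression and the oeLNC culture the lentivirus that overexpresses lncMDSC. Each of the 4 groups was 1 culture on 1 Affymetrix array, so the differences below carry neither p-value nor replicate error, and their precision is limited by the number of arrays.

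Cells make cholesterol from acetyl-CoA, through mevalonate, squalene and lanosterol. Most of the enzymes are under the control of SREBP transcription factors, encoded by Srebf1 and Srebf2, which are held in the endoplasmic reticulum by Scap and the Insig proteins when sterols are plentiful and are released to the nucleus when sterols run low. SREBP proteins are controlled mainly by this release and by cleavage, so the RNA level of Srebf1 or Srebf2 does not measure their activity. In macrophages and related myeloid cells the counterpart of this pathway is LXR, a receptor for oxysterols that switches on cholesterol efflux.

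The lowest and highest intensities on the arrays were 1.33 and 12309, and the median log2 intensity of an array was between 4.17 and 4.24. All levels below are log2 intensities and all differences are log2 differences between 2 arrays. A gene entered counts if either array of the comparison placed it above that array's 50th percentile, which held for all 35 genes in every comparison. The count threshold was 1.5-fold. As a yardstick of how far arrays differed, the SD of the difference between both controls was taken over the 500 genes nearest in level, and it ran from 0.40 to 0.62 for the 35 genes. Vector, culture and array all enter this SD, so it does not stand for replicates. Itgam, which encodes the CD11b surface protein of myeloid cells, was at 8.74, 8.41, 9.03 and 8.65 in kdNC, kdLNC, oeNC and oeLNC, and S100a8 and S100a9 were near the top of the scale on every array. Ly6g was not analysed here, and neither was the level of lncMDSC itself, so for knockdown and overexpression only the labels speak.

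The largest contrast in these genes did not lie between an lncMDSC lentivirus and its control. It lay between both overexpression cultures and both shRNA cultures. Genes of sterol synthesis, together with Fasn and Elovl6, were lower in oeNC and oeLNC than in kdNC and kdLNC, whereas the differences within each pair were mostly small. The 17 measured sterol enzymes had a summed intensity of 2306 in kdNC and 1849 in kdLNC, against 1173 in oeNC and 1173 in oeLNC. Of the 35 genes, 21 (60%) were lower on both overexpression arrays than on both shRNA arrays, where 30.8% of all genes were. Only 3 genes, Insig2, Fads1 and Lpin1, were higher on both overexpression arrays (8.57%, against 26.7% of all genes), and the other 11 overlapped. The arrays of a pair are different conditions, so this count describes the 4 arrays and is no test. Which vector was used, which culture it was and which array it ran on cannot be told apart between the pairs, and in such bulk RNA fewer cells of a type cannot be told apart from less RNA per cell.

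**Figure D1:**
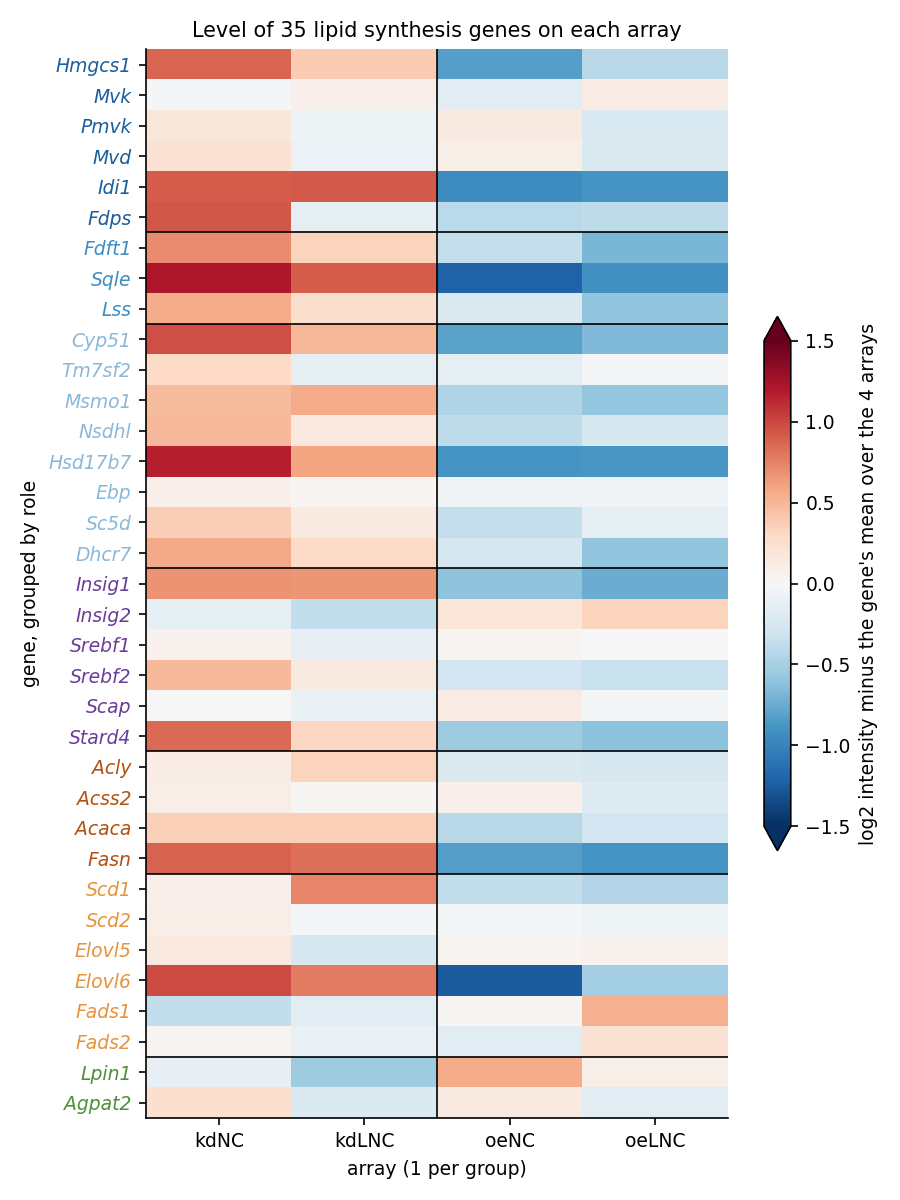
Level of each of the 35 genes on each array, as log2 intensity minus the mean of that gene over the 4 arrays (red above, blue below), with the genes in rows grouped by role and 1 column per array. The rows of Hmgcs1, Idi1, Sqle, Cyp51, Hsd17b7, Insig1, Fasn and Elovl6 are red on both shRNA arrays and blue on both overexpression arrays, while Mvk, Ebp, Srebf1, Scap and Scd2 stay near white.

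Between the control arrays (oeNC minus kdNC), 18 of the 35 genes were at least 1.5-fold lower in oeNC, where 12.2% of all genes tested were, and Lpin1 alone was at least 1.5-fold higher, where 9.22% of all genes were. At 2-fold, 11 genes were lower, against 4% of all genes, and no gene was higher, against 3.03%. The median difference of the 35 genes was -0.73, and that of all genes was -0.04. The differences of 19 genes exceeded 1 such SD, those of 10 exceeded 2 SD and those of 6 (Hmgcs1, Idi1, Sqle, Cyp51, Hsd17b7 and Elovl6) exceeded 3 SD. The SD comes from the same pair of arrays, so it places the genes among others and gives no error.

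The remaining arrays compare the same culture pairs without sharing an array with the controls, namely oeLNC minus kdLNC. By the labels, lncMDSC was overexpressed in oeLNC and knocked down in kdLNC, a difference that the controls do not have. It cannot be told apart here from vector, culture and array. This comparison was added after the values had been seen. In it, 15 of the 35 genes were at least 1.5-fold lower in oeLNC, where 12.7% of all genes were, and Insig2, Fads1 and Lpin1 were at least 1.5-fold higher, where 8.4% of all genes were. At 2-fold the count of lower genes was 10, against 3.85% of all genes. The median was -0.39, against 0.01 for all genes. Of the 35 genes, 14 were at least 1.5-fold lower in both comparisons, and of all genes above the filter in both, 6.51% were. Across the 35 genes the differences in the separate pairs of arrays had a Pearson's r of 0.88 and a Spearman's rho of 0.88, and across all 11463 genes above the filter in both pairs r was 0.58 and rho 0.52. These correlations are across genes, which are not independent replicates, and the points of each axis share their 2 arrays.

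**Figure D2:**
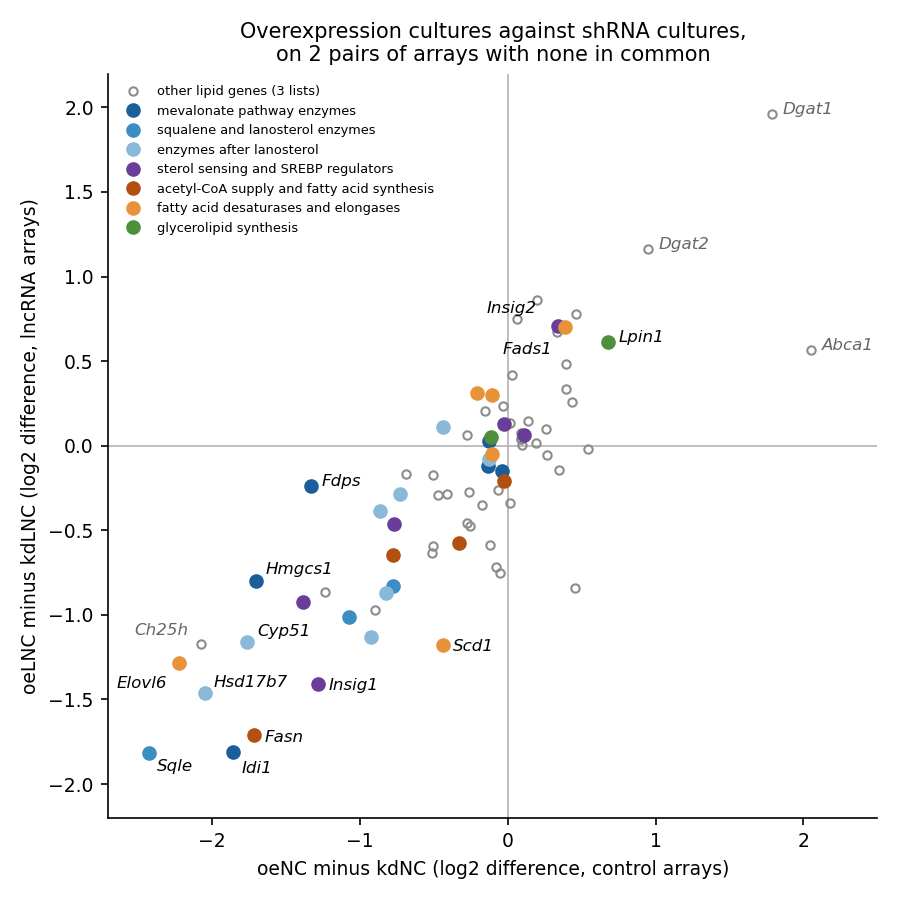
Log2 difference of each gene between the control arrays (oeNC minus kdNC, horizontal axis) and between the lncMDSC arrays (oeLNC minus kdLNC, vertical axis), with filled points for the 35 genes coloured by role and open points for other lipid genes. Idi1, Sqle, Fasn, Hsd17b7, Elovl6 and Insig1 lie far to the lower left, Fdps and Hmgcs1 are further from zero between the controls, Scd1 is further from zero between the lncMDSC arrays, and Dgat1 and Dgat2 lie to the upper right.

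By role, the enzymes of the mevalonate pathway divided into a group that differed between the culture pairs and a group that did not. Hmgcs1, the synthase that builds HMG-CoA, was at 8.70 in kdNC and 8.21 in kdLNC, against 7.00 in oeNC and 7.41 in oeLNC. Idi1, the isomerase of the isoprene unit, was at 7.28 and 7.29 in the shRNA cultures and at 5.43 and 5.48 in the overexpression cultures. Fdps, which joins isoprene units into farnesyl diphosphate, was at 7.38 in kdNC, but at 6.30 in kdLNC, 6.05 in oeNC and 6.06 in oeLNC. For Hmgcs1 and Idi1 both arrays of one pair were clear of both arrays of the other. For Fdps only kdNC stood well above the rest, so that its difference was -1.33 between the controls and -0.24 between oeLNC and kdLNC. The enzymes that stand between HMG-CoA and Idi1 in the pathway and were measured here were close to level: Mvk, Pmvk and Mvd, which phosphorylate and decarboxylate mevalonate, had differences between the controls of -0.12, -0.04 and -0.14, and overlapped between the culture pairs.

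All 3 enzymes that carry farnesyl diphosphate to lanosterol were lower in the overexpression cultures. Sqle, the squalene epoxidase and a rate-limiting step of the pathway, was at 6.57 in kdNC and 6.26 in kdLNC, against 4.14 in oeNC and 4.45 in oeLNC. Its difference of -2.43 between the controls (5.38-fold) was the largest of the 35 genes, and its level in oeNC was just under that array's median of 4.17. Fdft1, the squalene synthase, was at 8.01, 7.64, 6.94 and 6.62 in kdNC, kdLNC, oeNC and oeLNC. Lss, the lanosterol synthase, was at 6.12, 5.81, 5.35 and 4.98 in the same order. Neither gene overlapped between the culture pairs, and the median of the 3 differences was -1.07 between the controls and -1.01 between oeLNC and kdLNC.

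Of the 8 enzymes that turn lanosterol into cholesterol, 6 were at least 1.5-fold lower in oeNC than in kdNC, where 12.2% of all genes were. Cyp51, which removes the first methyl group from lanosterol, was at 6.82 and 6.36 in the shRNA cultures and at 5.06 and 5.20 in the overexpression cultures. Hsd17b7, a sterol ketone reductase, was at 6.50 and 5.93 against 4.46 and 4.47. Msmo1, a methyl sterol oxidase, was at 6.90 and 6.97 against 5.98 and 5.84. These 3 genes were lower in both overexpression cultures than in either shRNA culture, and Hsd17b7 also differed within the shRNA pair. Nsdhl, which acts with Msmo1 and Hsd17b7 in removing methyl groups, was at 6.54 in kdNC and 6.20 in kdLNC, against 5.68 in oeNC and 5.82 in oeLNC. Sc5d, a sterol desaturase, was at 7.13, 6.90, 6.40 and 6.61 in that order, and Dhcr7, the reductase of the last step, was at 6.48, 6.20, 5.65 and 5.33. Each of them was lower in both overexpression cultures, by less than Cyp51 or Hsd17b7 at their brightest probe sets. The other probe sets of Hsd17b7 above the filter gave only -0.60 and -0.39 between the controls. The exceptions in this group were Ebp, the sterol isomerase, which had a difference of only -0.13 between the controls, and Tm7sf2, a sterol reductase, at 5.83 in kdNC and between 5.39 and 5.50 on the other arrays. Over all 17 measured sterol enzymes, 17 were below 0 in the control difference. All genes had a median of -0.04 and quartiles of -0.31 and 0.23 there, and their share below 0 was not counted. By 1.5-fold or more 12 of the 17 enzymes were lower, where 12.2% of all genes were. On both overexpression arrays 13 were lower than on both shRNA arrays, where 30.8% of all genes were.

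Among the regulators, Insig1, Stard4 and Srebf2 differed between the culture pairs, while Srebf1 and Scap stayed near level. Insig1, a sterol-dependent anchor of Scap whose gene is switched on by SREBP, was at 7.37 in kdNC and 7.36 in kdLNC, against 6.09 in oeNC and 5.95 in oeLNC. Stard4, a cytosolic sterol carrier, was at 6.25 and 5.72 in the shRNA cultures and at 4.87 and 4.80 in the overexpression cultures. Srebf2, whose product acts chiefly on sterol genes, was at 6.84 and 6.49 against 6.07 and 6.02. Each was lower in both overexpression cultures than in either shRNA culture. Srebf1, whose product acts chiefly on fatty acid genes, was at 7.95, 7.76, 7.92 and 7.89 in kdNC, kdLNC, oeNC and oeLNC, and Scap, the escort of SREBP, was at 7.49, 7.39, 7.60 and 7.45. Both overlapped between the culture pairs. Insig2, the second anchor, ran the other way, at 7.11 and 6.89 in the shRNA cultures and at 7.45 and 7.60 in the overexpression cultures. Its other probe sets did not share one direction, with differences between the controls of 0.58 and -0.51, so its direction is uncertain.

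In fatty acid synthesis the difference lay mainly in Fasn, Acaca and Elovl6. Fasn, the fatty acid synthase, was at 7.06 in kdNC and 7.00 in kdLNC against 5.35 in oeNC and 5.29 in oeLNC, a difference of -1.71 in both cross-pair comparisons. Acaca, which makes malonyl-CoA, was at 5.59 and 5.59 against 4.82 and 4.95. Elovl6, the elongase of palmitate, was at 5.75 and 5.55 against 3.53 and 4.26, and was below the median of the oeNC array. All 3 enzymes were clear of overlap between the culture pairs. Acly and Acss2, which supply acetyl-CoA, had control differences of -0.33 and -0.02. Acly was lower in both overexpression cultures than in either shRNA culture. Its other probe sets above the filter gave -0.63 and -0.44 between the controls. Scd1, the main desaturase of stearate in liver and fat, was at 8.09 in kdNC and 8.74 in kdLNC, against 7.65 in oeNC and 7.57 in oeLNC, lower in both overexpression cultures and highest in kdLNC. Its second probe set was higher in oeNC than in kdNC, by 0.51, so its direction between the controls is uncertain. Scd2 and Elovl5, at control differences of -0.11 and -0.10, were near level. Fads1, a desaturase of polyunsaturated fatty acids, was higher at its brightest probe set in both overexpression cultures (0.39 between the controls and 0.70 between oeLNC and kdLNC), but a second probe set was lower, at -0.59 and -0.91.

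Lpin1, the phosphatidate phosphatase that makes diacylglycerol, was the only gene at least 1.5-fold higher in oeNC than in kdNC. It was at 5.74 in kdNC and 5.33 in kdLNC, against 6.42 in oeNC and 5.95 in oeLNC. Both overexpression cultures were above both shRNA cultures, and within each pair the culture with the lncMDSC lentivirus was the lower one. Agpat2, an acyltransferase of the same pathway, differed by -0.11 between the controls and overlapped between the culture pairs.

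**Figure D3:**
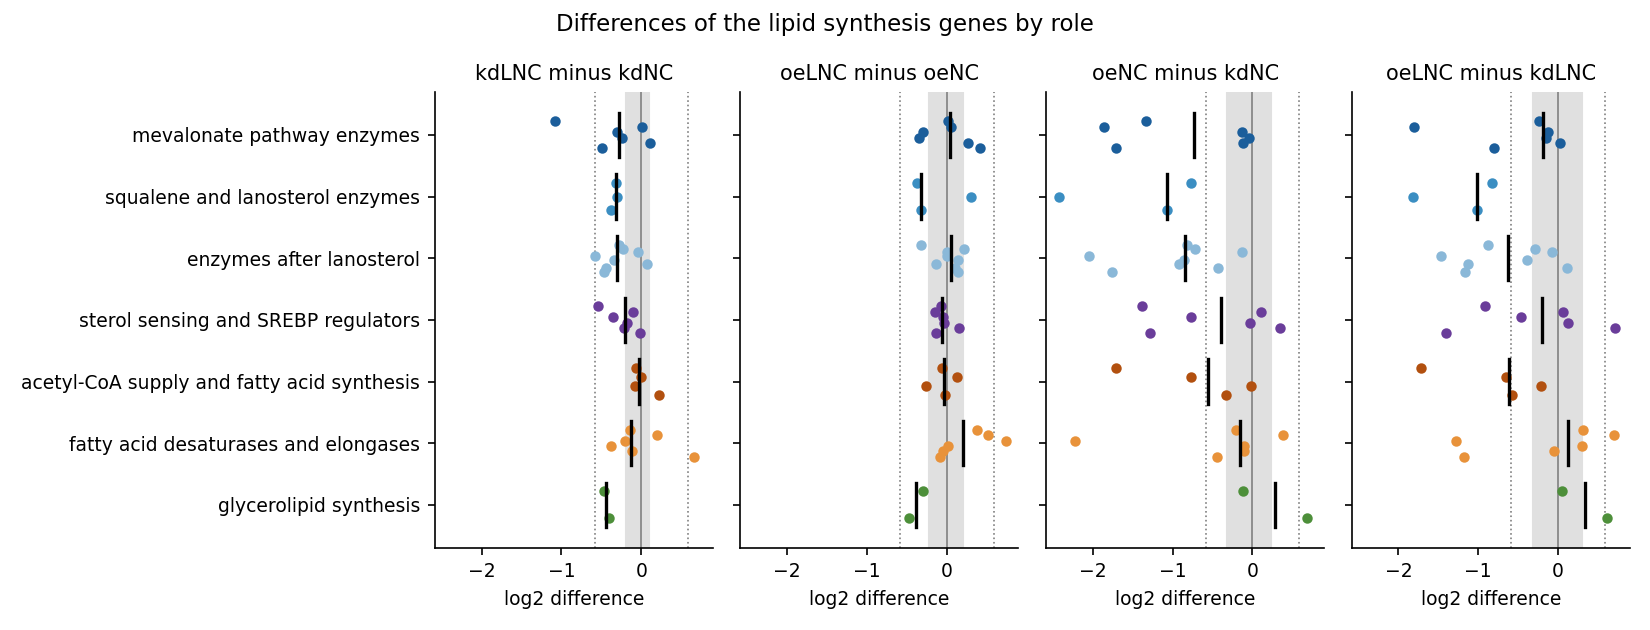
Log2 difference of each gene (points) in rows by role, for kdLNC minus kdNC, oeLNC minus oeNC, oeNC minus kdNC and oeLNC minus kdLNC, with the median of each role as a black bar, the span from the lower to the upper quartile of all genes above the filter as a grey band and 1.5-fold as dotted lines. Nearly all points lie within the dotted lines in the first 2 panels, and the sterol roles extend far to the left in the panels that compare the culture pairs.

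Of the 35 genes, 25 have more than 1 probe set, which gives a check within each RNA sample though not a replicate. Between the controls, 19 genes had 26 other probe sets above the filter, of which 20 were below 0, 11 were at least 1.5-fold lower and 1 was at least 1.5-fold higher, with a median of -0.50. All probe sets above the filter had the same direction in 14 of the 19 genes, and the exceptions were Insig2, Scd1, Scd2, Elovl5 and Fads1. The size of a difference was less alike than its direction. The others of Hmgcs1 gave -1.02, -0.96 and -0.92 where the brightest gave -1.71. The others of Hsd17b7 gave -0.60 and -0.39 where the brightest gave -2.05, and that probe set is of a kind that can match several transcripts. The second of Cyp51 gave -2.18, the second of Idi1 -1.42 and the second of Elovl6 -1.29, while those of Stard4 gave -1.47 and -0.52. The others of Scd2 gave 0.36 and 0.61 and that of Elovl5 gave 0.24, against -0.11 and -0.10 at the brightest. Dimmer probe sets, below the filter on both control arrays, were often nearer to 0 or of opposite sign. Those of opposite sign gave 0.48 for Acaca, 0.30 for Msmo1, 0.30 for Fdft1, 0.09 for Sc5d, 0.08 for Acss2 and -0.40 for Scap. Those of the same sign that differed by over 0.5 gave -0.06 for Fdps, -0.20 for Cyp51, -0.19 for Hsd17b7, -0.44 for Fdft1, -0.59 for Hmgcs1 and -0.85 for Elovl6.

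**Figure D4:**
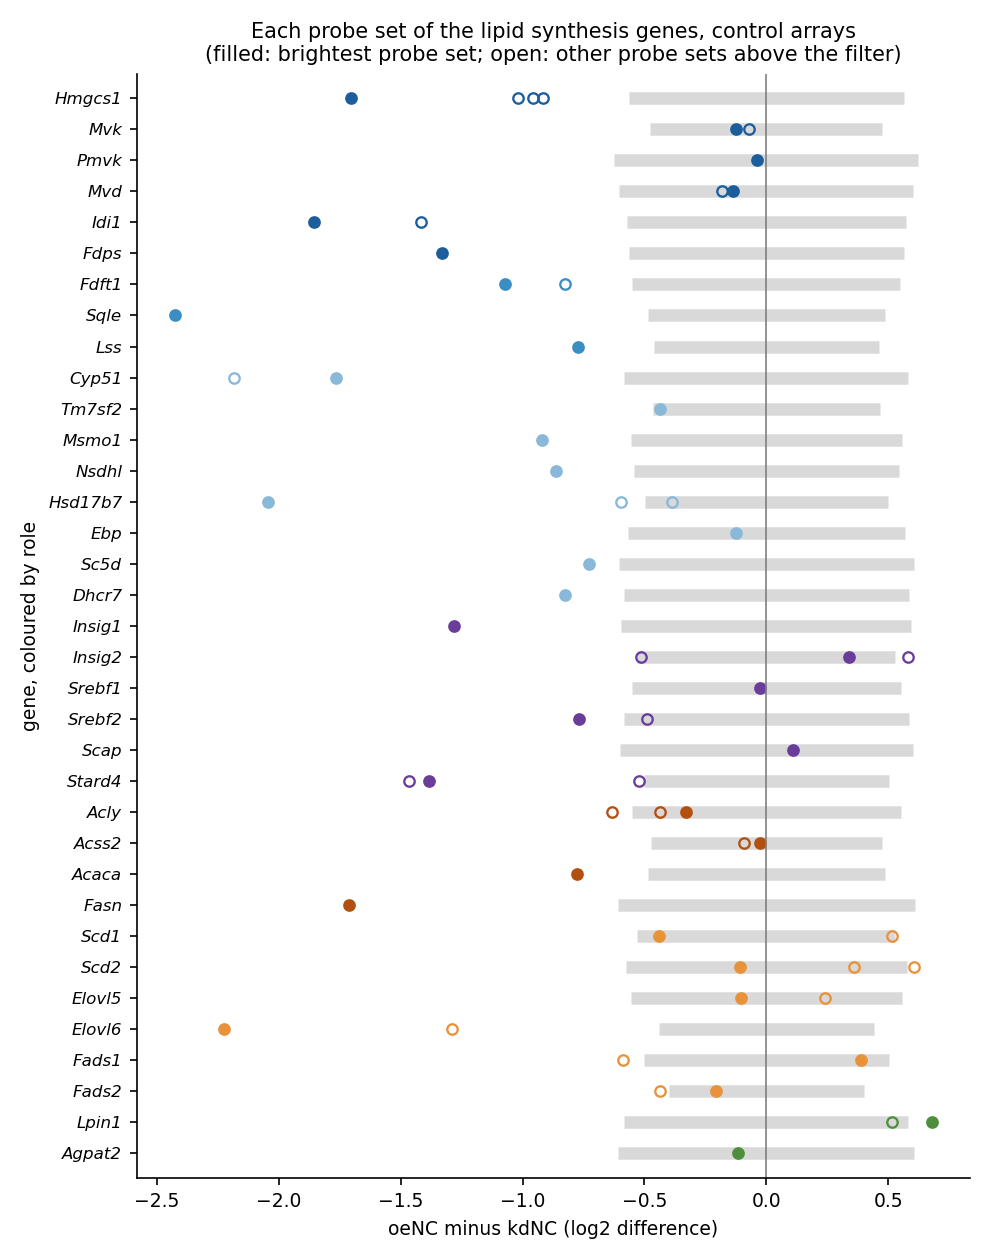
Log2 difference between the control arrays (oeNC minus kdNC) at every probe set of the 35 genes above the filter, with the brightest probe set filled, the others open, and the SD of the control difference at the level of the gene as a grey bar to either side of 0. Hmgcs1, Idi1, Fdft1, Cyp51, Stard4 and Elovl6 have all their points at or left of -0.52, and Insig2, Scd1, Scd2, Elovl5 and Fads1 have points on both sides of 0.

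The 200 bases before the annotated start are shown for those genes at least 2-fold lower in oeNC than in kdNC whose promoters were in the table used (7 of 11), to give the letters that SREBP and its partner factors are known to read. They are RefSeq sequences of build GRCm38.p6, written in the direction of transcription, with capitals marking matches on either strand to TCACNCCAC or TCANCCCAC (forms of the sterol response element, bound by SREBP), ATTGG (the CCAAT box, bound by NF-Y) and GGGCGG (the GC box, bound by Sp1).
Hmgcs1, chr13:119690151-119690350, plus strand: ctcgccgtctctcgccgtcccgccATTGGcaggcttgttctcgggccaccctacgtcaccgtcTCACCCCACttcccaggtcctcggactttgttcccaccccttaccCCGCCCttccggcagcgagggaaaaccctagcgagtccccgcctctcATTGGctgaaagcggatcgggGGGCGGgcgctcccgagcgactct
Idi1, chr13:8885406-8885605, plus strand: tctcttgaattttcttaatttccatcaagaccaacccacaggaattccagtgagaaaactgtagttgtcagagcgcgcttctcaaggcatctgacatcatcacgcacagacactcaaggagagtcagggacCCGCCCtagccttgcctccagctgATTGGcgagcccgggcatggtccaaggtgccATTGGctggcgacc
Cyp51, chr5:4104698-4104897, minus strand: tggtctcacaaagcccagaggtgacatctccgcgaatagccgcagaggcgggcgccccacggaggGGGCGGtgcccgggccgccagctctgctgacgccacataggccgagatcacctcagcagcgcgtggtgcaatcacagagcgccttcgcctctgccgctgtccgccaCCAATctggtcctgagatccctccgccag
Hsd17b7, chr1:169969206-169969405, minus strand: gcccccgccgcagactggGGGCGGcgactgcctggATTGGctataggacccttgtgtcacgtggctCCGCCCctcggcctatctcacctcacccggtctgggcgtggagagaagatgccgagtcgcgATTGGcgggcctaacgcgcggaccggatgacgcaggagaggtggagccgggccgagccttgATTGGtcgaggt
Insig1, chr5:28071212-28071411, plus strand: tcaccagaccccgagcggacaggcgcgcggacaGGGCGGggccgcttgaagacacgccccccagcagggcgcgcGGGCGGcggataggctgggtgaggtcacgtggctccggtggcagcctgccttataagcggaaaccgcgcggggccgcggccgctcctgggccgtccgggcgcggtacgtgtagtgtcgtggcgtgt
Fasn, chr11:120824548-120824747, minus strand: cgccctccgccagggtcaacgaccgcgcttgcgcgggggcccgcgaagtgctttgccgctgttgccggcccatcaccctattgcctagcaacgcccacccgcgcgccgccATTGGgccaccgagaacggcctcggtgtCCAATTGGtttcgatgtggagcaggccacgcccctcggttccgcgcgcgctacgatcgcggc
Elovl6, chr3:129532186-129532385, plus strand: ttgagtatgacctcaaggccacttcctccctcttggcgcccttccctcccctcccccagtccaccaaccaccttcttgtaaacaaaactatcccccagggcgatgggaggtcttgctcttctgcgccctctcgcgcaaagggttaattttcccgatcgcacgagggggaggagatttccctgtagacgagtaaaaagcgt
In these windows a CCAAT box lay in the promoters of Hmgcs1, Idi1, Cyp51, Hsd17b7 and Fasn, and a match to a sterol response element form in that of Hmgcs1, where both forms matched the same position. Insig1 held GC boxes only and Elovl6 held none of these letters in this window. Over the full promoters in the table, from 250 bases before to 50 after the start, 29 of the 36 genes matched, with 37 promoters. ATTGG was found in 62.2% of them and in 37.4% of all 32851 promoters, and GGGCGG in 73% and 35.7%. TCACNCCAC was found in 2.7% (1 promoter) and in 1.24% of all promoters, and TCANCCCAC in 5.41% (2 promoters, of Hmgcs1 and Elovl5) and in 1.38%. ATTGG lay near 12 of the 14 matched genes that were at least 1.5-fold lower in oeNC and near 10 of the 14 other measured genes, and GGGCGG near 11 of 14 in each. Counted by gene in the same way, ATTGG lay near 41.1% and GGGCGG near 38.2% of all 27025 genes with a promoter. A match is a description of these letters and not a binding site, and the 4 motifs were not tested against other motifs.

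Within the knockdown pair (kdLNC minus kdNC) the genes differed little. Scd1 was the only gene at least 1.5-fold higher, where 2.36% of all genes were, and Fdps the only one at least 1.5-fold lower, where 1.96% were. Fdps was at 7.38 in kdNC and 6.30 in kdLNC, a difference of -1.08 (2.11-fold), and was the only gene past 2-fold, where 0.356% of all genes were that much lower and 0.478% that much higher. Its second probe set, below the filter, had a difference of -0.05. Scd1 was at 8.09 in kdNC and 8.74 in kdLNC, a difference of 0.66 (1.58-fold), and its second probe set had a difference of 0.97. Smaller differences at the brightest probe sets were mostly negative, with 28 of the 35 genes below 0. All genes leaned the same way, with quartiles of -0.19 and 0.10, and their share below 0 was not counted. Stard4 had a difference of -0.54, and its other probe sets, at -0.22 and -0.52, were below 0 too. Hsd17b7 had a difference of -0.58, but its other probe sets above the filter were near 0, at 0.03 and -0.02. Hmgcs1 had a difference of -0.50, with the others at 0.05, -0.02 and -0.42. The median was -0.23 against -0.05 for all genes, and 14 of the 17 sterol enzymes were below 0, with a median of -0.31. The differences of Fdps, Hsd17b7, Stard4 and Scd1 exceeded 1 SD of the difference between controls and those of the other 31 genes did not. The sign of the median rests on the control chosen: against the mean of both control arrays it was 0.092. Probe sets above the filter had the same direction in 13 of the 20 genes that had more than 1, and not in Hmgcs1, Mvk, Lss, Hsd17b7, Insig2, Acly and Scd2. Beside the brightest, Mvk had -0.17, Lss 0.13, Insig2 0.95 and -0.05, Acly -0.59 and -0.13, and Scd2 0.11. Idi1 had 0.73 beside 0.01 and Lpin1 had -0.94 beside -0.41, which differed in size alone. Below the filter, probe sets of opposite sign or nearer to 0 by over 0.5 gave 0.24 for Fdft1, 0.12 for Cyp51, -0.03 for Msmo1, -0.03 for Hsd17b7, 0.27 and 0.04 for Sc5d, -0.06 and -0.06 for Acly and 0.33 for Fads2.

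Within the overexpression pair (oeLNC minus oeNC), Elovl6 was the only gene at least 1.5-fold higher, where 3.93% of all genes were, and no gene was at least 1.5-fold lower, where 5.38% were. At 2-fold no gene was higher or lower, where 0.295% and 0.809% of all genes were. Elovl6 was at 3.53 in oeNC and 4.26 in oeLNC, a difference of 0.74 (1.67-fold) at a level that was barely above the median of the oeLNC array. Its second probe set, below the filter on both arrays, had a difference of -0.49, and with the mean of both controls as the control the difference was -0.37. Of the 35 genes, 18 were below 0 and 17 above, and the median was -0.02 against -0.01 for all genes. Elovl6 and Fads1 (0.52) were the only genes whose difference exceeded 1 SD of the control difference, and the second probe set of Fads1 had a difference of -0.25. Probe sets above the filter differed in direction in 9 of the 15 genes that had more than 1, namely Hmgcs1, Mvk, Fdft1, Insig2, Srebf2, Acly, Acss2, Elovl5 and Fads1. Hmgcs1 had a difference of 0.41 at its brightest probe set and of -0.13, -0.13 and -0.14 at the others, and Fdft1 had -0.32 at its brightest and 1.15 and -0.24 at the others. Beside the brightest, Mvk had -0.0028, Insig2 -0.28, Srebf2 0.31, Acly 0.20, Acss2 0.18 and Elovl5 -0.21, and Scd1 had -0.63 beside -0.08. Below the filter, probe sets of opposite sign or differing by over 0.5 gave -0.32 for Hmgcs1, -0.54 for Idi1, 0.22 for Fdft1, 0.12 for Lss, -0.74 for Cyp51, -0.997 for Msmo1, 0.63 for Hsd17b7, 0.28 for Scap, 0.0039 and 0.20 for Acly and -0.15 and -0.30 for Fads2. Lpin1, at -0.47 and -0.37 on its probe sets, was lower on both. The knockdown and overexpression differences share no array, and across the 35 genes r was 0.10 and rho 0.08, against -0.19 and -0.15 across 11282 genes. Each of the within-pair comparisons shares its control array with the comparison of the controls. Fdps, for example, was high in kdNC alone, which enters both its knockdown difference of -1.08 and its control difference of -1.33.

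Further genes of the same pathways are given as lists, to be read against the shares of all genes between the controls (12.2% at least 1.5-fold lower and 9.22% higher), against which no list was tested. Each of these genes was read at its brightest probe set alone, and any other probe sets were not compared. Among 11 further genes of sterol synthesis and uptake above the filter, of 18 listed, 1 was at least 1.5-fold lower and none higher, with a median of -0.12. That gene was Acat1, the mitochondrial acetoacetyl-CoA thiolase, at 7.20 and 7.22 in the shRNA cultures and at 6.31 and 6.25 in the overexpression cultures. In the knockdown pair, where 1.96% of all genes were at least 1.5-fold lower, the one gene of the list past 1.5-fold was Lpl, the lipoprotein lipase, at 9.43 in kdNC and 8.74 in kdLNC.

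Of 23 further genes of fatty acid and glycerolipid metabolism above the filter, of 33 listed, 2 were at least 1.5-fold higher in oeNC and 2 lower, with a median of -0.03. Those that were higher were the enzymes that complete triglyceride synthesis from diacylglycerol. Dgat1 was at 8.46 in kdNC and 7.85 in kdLNC, against 10.25 in oeNC and 9.81 in oeLNC. Dgat2 was at 10.07, 9.55, 11.02 and 10.71 in that order. Like Lpin1, both were higher in each overexpression culture than in either shRNA culture and lower with the lncMDSC lentivirus than with its control, by -0.62 for Dgat1 in the knockdown pair. The lower genes were Mlxip, a glucose-responsive transcription factor, at 7.47, 7.66, 6.24 and 6.80, and Elovl1, an elongase of very long chain fatty acids, at 9.89, 9.77, 9.20 and 9.60. Acsl4, an acyl-CoA synthetase that favours arachidonate, was at 8.01 in kdLNC against 7.12 in kdNC. It was the one gene of this list at least 1.5-fold higher in kdLNC, where 2.36% of all genes were.

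Among 10 genes of LXR signalling and cholesterol efflux above the filter, of 12 listed, 1 was higher and 1 lower in oeNC by 1.5-fold or more, with a median of 0.10. Abca1, the exporter of cholesterol to apolipoprotein A-I and an LXR target, was at 8.68 in kdNC and 9.65 in kdLNC, against 10.73 in oeNC and 10.22 in oeLNC. It was higher in both overexpression cultures than in either shRNA culture, and it was higher in kdLNC than in kdNC by 0.98. Its relation to the sterol enzymes was not tested. Ch25h, which makes an oxysterol that holds SREBP back, was at 5.37, 4.91, 3.29 and 3.74, lower in the overexpression cultures. Its levels in oeNC and oeLNC were below the medians of those arrays (4.17 and 4.24). Cyp27a1, another oxysterol-producing enzyme, was the one gene of this list at least 1.5-fold higher in oeLNC than in oeNC, where 3.93% of all genes were. It was at 4.51 against 3.88, near the same medians.

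Of the marker lists, the proliferation genes differed between the culture pairs in the direction of the lipid genes. Of 16 proliferation genes above the filter, 12 were lower on both overexpression arrays than on both shRNA arrays, where 30.8% of all genes were. Between the controls 6 were at least 1.5-fold lower, where 12.2% of all genes were, with a median of -0.42, and between oeLNC and kdLNC 12 were, where 12.7% of all genes were, with a median of -0.74. Their summed intensity was 7427 in kdNC and 6716 in kdLNC, against 5337 in oeNC and 4687 in oeLNC. Unlike the lipid genes, they also differed within the overexpression pair (oeLNC minus oeNC). There the median of the proliferation genes was -0.46, against -0.02 for the 35 lipid genes. Of the 16 proliferation genes, 4 were at least 1.5-fold lower in oeLNC than in oeNC, where 5.38% of all genes were. The 5 eosinophil markers had a summed intensity of 2681 in kdNC, against 1407, 1283 and 1198 in kdLNC, oeNC and oeLNC. In this sum kdNC alone was high, as it was for Fdps. Siglecf was the exception among the 5, at 6.82, 6.27, 6.91 and 6.31 in kdNC, kdLNC, oeNC and oeLNC. The median of the eosinophil markers was -1.07 in the knockdown pair, -1.71 between the controls and -0.15 between oeLNC and kdLNC. The 11 measured neutrophil markers instead had their lowest summed intensity in kdLNC, at 42636, against 50662, 55161 and 51270 in kdNC, oeNC and oeLNC. In the knockdown pair 6 of the 11 markers were at least 1.5-fold lower, where 1.96% of all genes were. In that pair 7 of the 11 were below 0, but Lcn2, Mmp8, S100a8 and S100a9 were above 0. The median of the 11 markers was -0.76 in the knockdown pair, 0.11 between the controls and 0.94 between oeLNC and kdLNC. In the last comparison 6 of the 11 were at least 1.5-fold higher in oeLNC, where 8.4% of all genes were, led by Ltf at 2.92. The 9 monocyte and macrophage markers had medians of -0.18, -0.05 and 0.23 in the same order. The log2 ratio of the 3' to the 5' probe sets, a sign of RNA integrity, was 1.61 for actin in kdNC and 1.96 to 1.97 on the other arrays, whereas for Gapdh it was 0.51, 0.69, 0.53 and 0.65 in kdNC, kdLNC, oeNC and oeLNC, where kdNC was close to oeNC. The part of these values in the differences of the lipid genes was not tested.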

How the data were processed

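RNA of MDSC cultures grown from bone marrow was hybridized to 4 Affymetrix arrays, 1 per group (kdNC, kdLNC, oeNC and oeLNC), and the groups were taken from the labels. The authors deposited normalized probe set intensity values on a linear scale, and RMA is the tool named in the submitters' processing notes, with no version. RMA pulls the arrays to one distribution, so a shift shared by most genes would not be seen. Of 45101 probe sets, 34958 carry 1 gene symbol in the platform annotation, 932 several and 9211 none, and only the first kind was used. The log2 of each intensity was taken and differences between arrays were formed with Python 3.11.15, numpy 2.4.6, pandas 2.3.3 and scipy 1.17.1, and plotted with matplotlib 3.10.9. The calculation was tested on simulated data.

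Counts, at 1.5-fold, cover genes that exceeded the array's 50th percentile in either array compared. Limma, named in the methods, could not be fitted with 1 array per group. The genes and lists were chosen with earlier results of these data known. Values on all arrays are given for genes at least 1.5-fold different in the knockdown, overexpression or control comparison and for Srebf1, Srebf2, Scap, Insig1 and Insig2, and up to 4 genes per companion list and comparison are named. For the 35 genes, other probe sets are given in the knockdown, overexpression and control comparisons where they differ in sign or by over 0.5. Companion and marker genes stand on their brightest probe set, and their other probe sets were not compared. The alternatives tried were centring on array medians, quantile normalization over the arrays, loess, averaging a gene's probe sets, leaving out probe sets with a shared suffix (_s, _x or _a, which mark possible matches to several transcripts), 16 added to each intensity, both controls averaged, no filter, the 70th percentile and 2-fold. Promoters came from RefSeq (GRCm38.p6), with motifs searched on both strands. Signal over background is not given in the sources used here.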

Additional observations from a re-analysis of the deposited data

How the results depend on the processing

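No paired analysis was possible because there is a single array per group, and for the same reason none could be left out. Median centring, a further quantile normalization and loess left every median and count on the same side of its limits, which were 0.1 for a median and 1.5 times for a count. The comparison oeLNC minus kdLNC was added after the values had been seen. For the controls the median of -0.73 became -0.37 with the mean of all probe sets, -0.44 without probe sets of shared suffix, -0.54 with 16 added to each intensity and -0.39 for oeLNC minus kdLNC. The count of 18 genes lower between the controls became 11 at 2-fold, and ran from 11 to 18 over all alternatives. The 1 gene higher became 0 without those probe sets, with 16 added and at 2-fold, and 3 for oeLNC minus kdLNC. The control difference of Msmo1 was 0.30 without those probe sets. The mean of both controls as the control moves both within-pair comparisons by a fixed part of the difference between the controls: the knockdown median became 0.092 with 6 genes higher, and the overexpression median -0.35 with 12 genes lower, and Elovl6 became -0.37 there. In the knockdown pair 2 genes were lower without those probe sets, and none was higher at 2-fold. The 1 gene higher on overexpression became 0 with the mean of all probe sets, with 16 added, with the filter at the 70th percentile and at 2-fold. Apart from what these alternatives do by construction, the cause was not tested. The count of genes without overlap between the culture pairs, 24, ran from 21 to 25. Of the 24, 21 were lower and 3 higher in the overexpression cultures, where 30.8% and 26.7% of all genes were. Over the alternatives these shares of all genes ran from 22.8% to 36.7% for lower and from 25.1% to 34.0% for higher. Sqle and Elovl6 in the overexpression cultures, and Fads2 on all arrays, lay near the array medians, and signal over background was not analysed here.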
